A study of Drosophila melanogaster with 6 samples.

Results

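Translation initiation and elongation factors are the proteins that load ribosomes onto mRNAs and drive the ribosome along them. The genes described here were taken by name, as the rows of the deposited expression table whose symbol begins with eIF or eEF, a rule that uses no measured value. The rule found 51 genes among 17457 rows, 43 named eIF and 8 named eEF. All 51 are protein-coding genes in the Ensembl annotation of the fly assembly BDGP6.54, with the same chromosome, start, end and strand as in the deposited table. They lie on chromosome arms 3R (15 genes), 2R (13), 3L (10) and 2L (5), on X (7) and on chromosome 4 (1).

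The study profiled polyA RNA of Drosophila melanogaster ovaries in 2 groups of 3 samples. In the overexpression group, named SamS_OE in the labels, flies with the UASp-Sam-S construct were crossed to nanos-gal4, a driver of germline expression, so that germ cells made extra S-adenosylmethionine synthetase, the enzyme that makes the methyl donor S-adenosylmethionine. In the control group, nanos-gal4 flies were crossed to flies whose docking site for that construct was empty, so both groups carried the driver. Replicates carry the numbers 1 to 3 in both groups, and each was labelled with the batch of the same number. Fly age and strain are not given in the sources used here. Each sample is a whole ovary preparation in which germ cells and the somatic follicle cells and muscle sheath contribute RNA together, so fewer cells of a type and less RNA per cell cannot be told apart. Nothing in the labels says whether the 3 samples of a group came from separate crosses, so p-values measure the spread between these samples only.

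In eukaryotes, eIF2 brings the initiator tRNA to the small ribosomal subunit, and eIF2B recharges eIF2 with GTP after each round. eIF3 is a large scaffold on the small subunit, and eIF4F, made of the cap-binding eIF4E, the scaffold eIF4G and the helicase eIF4A, brings the mRNA to it. During elongation eEF1A delivers aminoacyl-tRNAs and eEF2 moves the ribosome by a codon. A fly oocyte is filled with ribosomes and maternal mRNAs by its nurse cells, and many of those mRNAs are held silent or switched on through proteins that bind the cap or eIF4E.

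Levels are given as TPM, a transcript abundance that accounts for transcript length and adds up to one fixed sum per library, so that different genes of a sample can be compared. The depth behind a TPM value cannot be read from it, and no detection limit can be set. Sam-S itself, measured to check the labels, was at 497, 512 and 483 TPM in controls 1 to 3 and at 1572, 1443 and 1541 TPM in overexpression samples 1 to 3. The groups were far apart, and limma gave a log2 fold change of 1.61 (SE 0.05, adjusted p = 2.79e-06). Germline markers were present in all samples, with vas between 249 and 303 TPM and osk between 939 and 1069.9 TPM, and so were the follicle cell genes tj and Vm26Aa. Hemocyte genes summed to at most 3.74 TPM and fat body genes to at most 6.04 TPM in any sample. Of 11 testis genes looked for, 0 had a mean of 1 TPM or more, 5 were listed at 0 in all 6 samples, and their summed level lay between 0.73 and 1.65 TPM in controls and between 1.20 and 1.46 TPM with overexpression.

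The 51 genes fell into 2 classes by level. In every one of the 6 samples the same number, 42 genes, was at 1 TPM or more, and these are the 42 genes with a mean of at least 1 TPM that entered the test. The other 9 genes never exceeded 0.61 TPM, and 5 of them (eIF3d2, eIF3g2, eIF4E3, eIF4E4 and eIF4H2) were listed at 0 in all 6 samples. All 9 are additional copies of a factor whose main gene was among the 42. The 42 spanned from 1.86 TPM for eEF1alpha2 to 11444 TPM for eEF1alpha1 as means over the 6 samples, with a median of 339 TPM, against a median of 48.4 TPM over the 7855 rows tested in the whole table.

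**Figure D1:**
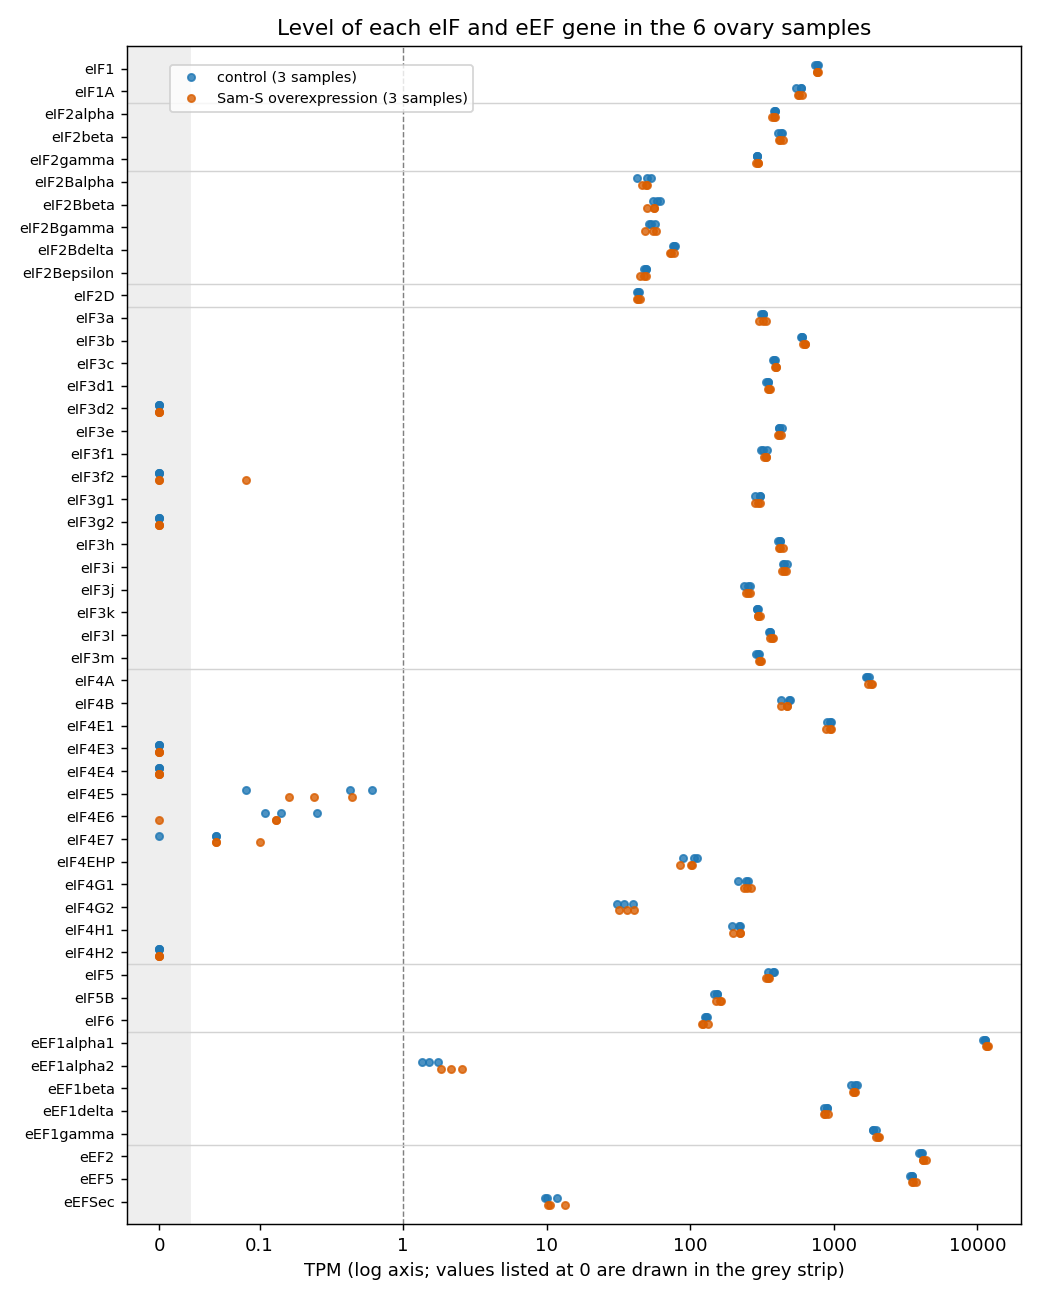
TPM of each of the 51 eIF and eEF genes in each sample, on a log axis, blue for the 3 controls and orange for the 3 Sam-S overexpression samples, with grey lines between complexes a dashed line at 1 TPM and values of 0 in the grey strip. Above 1 TPM the points of both groups lie close together for each gene but eEF1alpha2, and 9 genes lie below 1 TPM in all 6 samples.

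The level of these genes did not change detectably with Sam-S overexpression. Of the 42 tested, 0 passed an adjusted p of 0.05 in limma, a linear model with a shared variance estimate run on log2(TPM + 1) over the whole table, and 0 had an unadjusted p under 0.05. Over all rows tested, 22 of 7855 passed, which is 0.280% (0.178% higher and 0.102% lower), and 6.58% had an unadjusted p under 0.05. The smallest adjusted p among the 42 was 0.851. In the authors' deposited table the smallest FDR of any of the 51 genes was 0.711, and 0.699% of its rows had an FDR under 0.05.

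The bounds on a change were narrow for most genes. For 37 of the 42 the 95% interval of the log2 fold change lay inside -0.25 to 0.25, a change of at most 1.19-fold either way on the log2(TPM + 1) scale, which understates low genes. The other 5 were eIF2Bbeta, eIF4EHP, eIF4G2, eEFSec and eEF1alpha2, of which only eIF4EHP and eIF2Bbeta had mean levels above 50 TPM. Leaving aside eEF1alpha2, the fitted log2 fold changes of the other 41 ran from -0.12 to 0.10. The median absolute log2 fold change was 0.04 for the 42 genes and 0.06 for all rows tested.

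The signs leaned towards higher values without any gene passing the test. The log2 fold change was positive for 28 and negative for 14 of the 42, against 44.0% positive over all rows tested, and the median was 0.01 for the 42 genes and -0.01 for the table. Within batches 1, 2 and 3 the overexpression sample was higher for 19, 33 and 25 of the 42 genes. The median differences in log2(TPM + 1) were -0.02, 0.05 and 0.02. Shares over all rows are not given by batch. Over all rows tested, control replicate 2 held the lowest control value for 57.2%. Overexpression replicate 1 held the lowest overexpression value for 57.1%. In 6 of the 42 genes (14.3%) all 3 overexpression values lay above all 3 controls, namely eIF3b, eIF3c, eIF3m, eEF1alpha1, eEF1alpha2 and eEF2, and in 0 genes below them. Over all rows tested, 6.25% lay above without overlap and 5.60% below. The split was 33 positive and 9 negative under quantile normalization. It was 20 positive and 22 negative without overexpression replicate 2, and 21 and 21 without control replicate 2. The split of signs thus depends on those libraries, but the table moved as well. Without overexpression replicate 2 the median log2 fold change was -0.0043 for the 42 genes and -0.0246 for all rows tested. Without control replicate 2 these medians were 0.0005 and -0.0344.

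**Figure D2:**
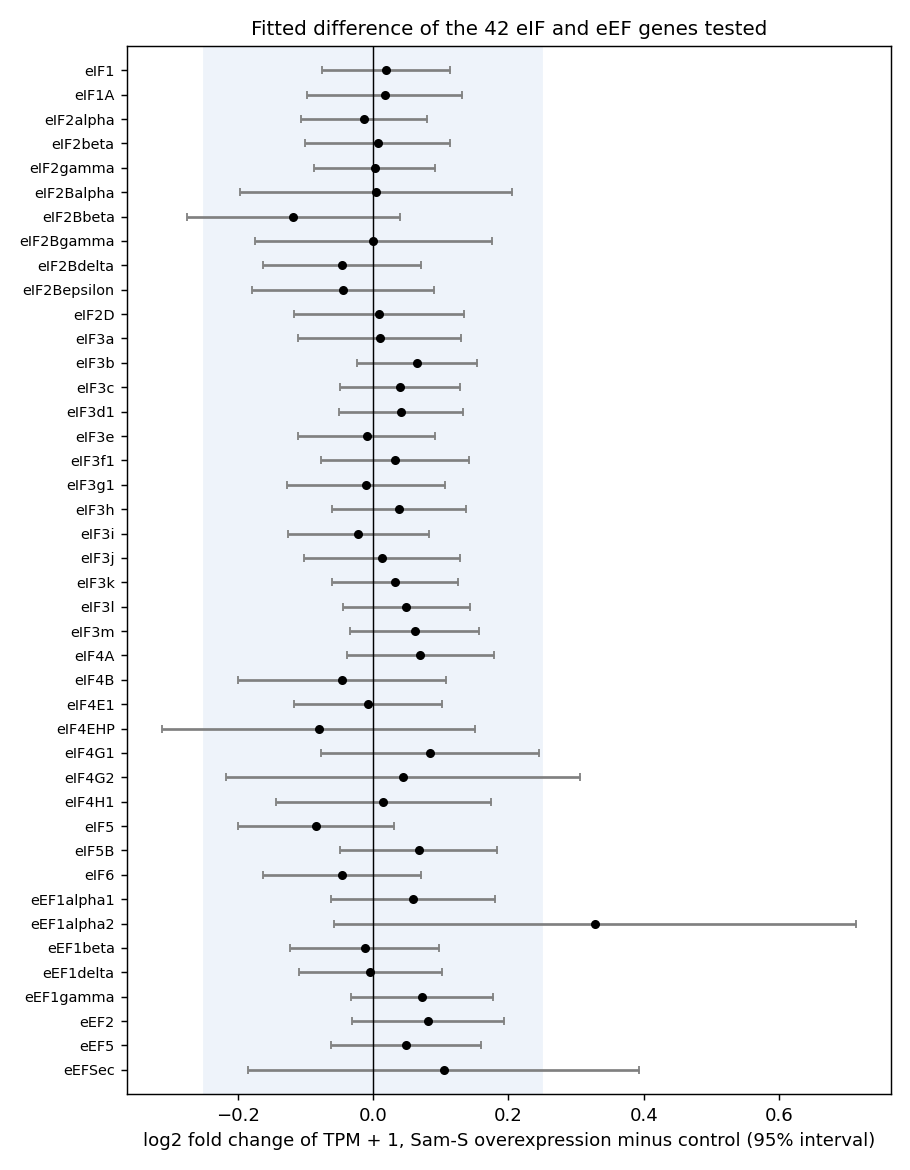
Fitted log2 fold change of TPM + 1 (overexpression minus control) for each of the 42 genes tested, with its 95% interval from limma; the shaded band marks -0.25 to 0.25. The intervals of all 42 genes include 0, and 37 lie inside the band, while that of eEF1alpha2 reaches 0.71.

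The first factors on the small subunit are eIF1 and eIF1A, which keep the scanning ribosome open until it meets a start codon. eIF1 (FBgn0035423, 3L:3223341-3224650, plus strand) was at 767, 772 and 736 TPM in controls and 768, 759 and 779 TPM with overexpression. eIF1A was lower than eIF1 in every sample, between 543 and 600.4 TPM. Both genes had intervals inside the band.

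The 3 subunits of eIF2 sat close together. eIF2beta was between 408 and 442 TPM, eIF2alpha, the subunit that stress kinases phosphorylate to slow initiation, between 374 and 392 TPM, and eIF2gamma, the GTP-binding subunit, between 288 and 298 TPM. The ranges of the 3 genes over the 6 samples did not overlap, so this order held in each sample. eIF2gamma was the steadiest of the 42 genes, with a coefficient of variation of 1.12% over the 6 samples. Its row overlaps Su(var)3-9 on the same strand, and how the authors assigned reads shared between overlapping rows is not stated. eIF2D, which can deliver the initiator tRNA in another way, was at 43.4 TPM on average.

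All 5 subunits of eIF2B, the exchange factor of eIF2, were far lower than eIF2. The mean of the 5 was between 6.33 and 6.76 times lower than the mean of the 3 eIF2 subunits within each sample. eIF2Bdelta was the highest, at 72.2 to 78.1 TPM, above every value of the other 4 subunits, whose means lay between 47.9 TPM (eIF2Bepsilon, the catalytic subunit) and 56.1 TPM (eIF2Bbeta). eIF2Bbeta (FBgn0024996, X:2704571-2706217, plus strand) had the lowest fitted log2 fold change of the 42 genes over all 6 samples. It was at 58.6, 54.9 and 61.7 TPM in controls and at 55.8, 55.6 and 50.0 TPM with overexpression. The groups overlapped, and limma gave a log2 fold change of -0.12 (SE 0.07, adjusted p = 0.884). Its log2 fold change was -0.07 without overexpression replicate 3 and -0.08 without control replicate 3. It was not the lowest in every fit with 1 sample left out. For example, eIF4EHP was at -0.12 without overexpression replicate 3, and at -0.18 against -0.16 for eIF2Bbeta without control replicate 2.

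For eIF3 the table holds 16 genes for 13 subunits, and 13 genes, 1 for each subunit, were between 237 and 635 TPM in all 6 samples. Their means ran over a 2.44-fold range, from 251 TPM for eIF3j, which is loosely bound to the complex, to 612 TPM for eIF3b, a core scaffold. eIF3b stood apart at the top, since its lowest value of 596 TPM exceeded the highest of eIF3i, 475 TPM. Below it came eIF3i (454 TPM), eIF3h (422 TPM), eIF3e (421 TPM), eIF3c (389.6 TPM), eIF3l (362 TPM), eIF3d1 (349 TPM), eIF3f1 (329 TPM) and eIF3a (319 TPM). eIF3m (302 TPM), eIF3k and eIF3g1 (both 296 TPM) followed. The ranges of neighbours in this order overlapped, apart from eIF3b above eIF3i, eIF3e above eIF3c, eIF3c above eIF3l and eIF3g1 above eIF3j.

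Of the 13 eIF3 genes tested, 10 had positive and 3 negative log2 fold changes, from -0.02 to 0.06, and 0 passed the test. eIF3b (FBgn0034237, 2R:17536213-17539142, plus strand) was at 597, 596 and 602 TPM in controls and at 628, 615 and 635 TPM with overexpression. All 3 overexpression values were above the controls, but the difference did not pass the test, and limma gave a log2 fold change of 0.06 (SE 0.04, adjusted p = 0.884). eIF3c and eIF3m also had no overlap, with log2 fold changes of 0.04 and 0.06. The summed level of the 16 eIF3 genes was 4756 ± 30.8 TPM in the 3 controls and 4848 ± 56.4 TPM in the 3 overexpression samples (SD), and the ranges met, at 4726 to 4788 TPM and 4787 to 4898 TPM.

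For each eIF3 subunit with a pair of genes, 1 copy was abundant in the ovary and the other was listed at or near 0. eIF3d1, whose product is the subunit that can itself bind a cap in mammals, was at 348, 338 and 346 TPM in controls and 348, 361 and 354 TPM with overexpression, and eIF3d2 was listed at 0 in all 6 samples. eIF3g1 was at 304, 282 and 305 TPM in controls and 283, 296 and 305 TPM with overexpression, and eIF3g2 was listed at 0 in all 6. eIF3f1 was at 313, 342 and 322 TPM in controls and 336, 325 and 338 TPM with overexpression, and eIF3f2 was above 0 in only 1 of the 6 samples, overexpression replicate 2, at 0.08 TPM. All 3 genes overlapped between the groups, with log2 fold changes of 0.04, -0.01 and 0.03 for eIF3d1, eIF3g1 and eIF3f1. The copies at or near 0 have coding sequences of similar length to the abundant ones in the annotation. These were 551 residues for eIF3d2 against 560 for eIF3d1, 273 for eIF3g2 against 269 for eIF3g1, and 286 for eIF3f2 against 280 for eIF3f1.

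**Figure D3:**
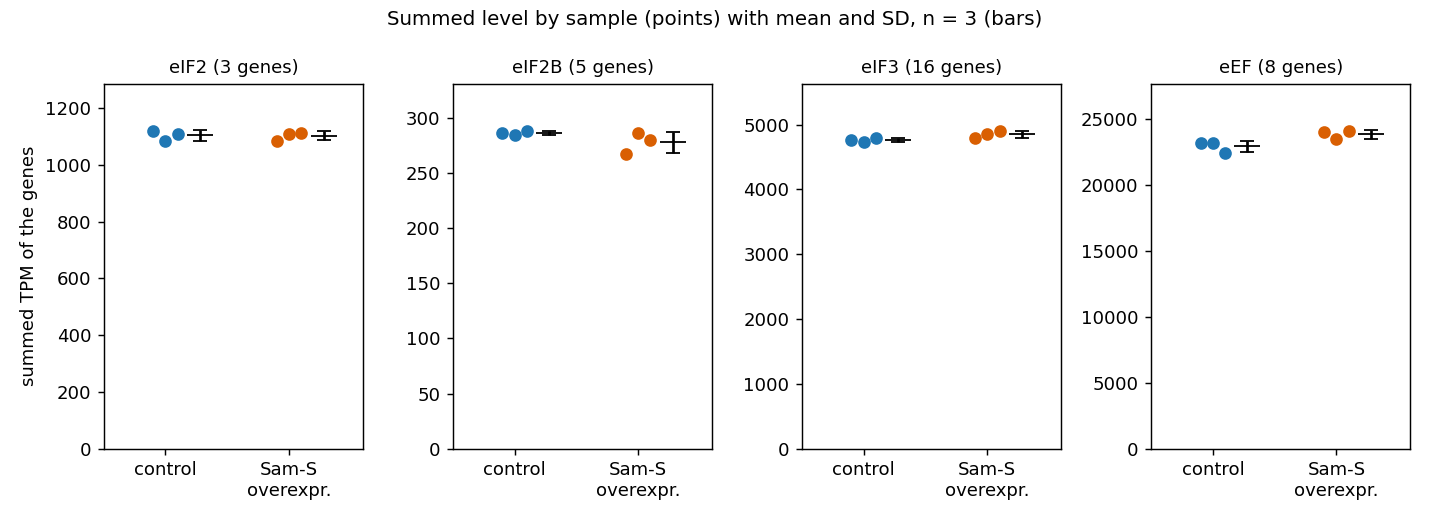
Summed TPM of the genes of eIF2, eIF2B, eIF3 and all eEF genes in each sample (points, blue control and orange Sam-S overexpression), with the mean and SD of each group of 3 beside them and each axis starting at 0. The eEF sums of 22428 to 23169 TPM in controls lie below the 23436 to 24053 TPM of the overexpression samples, while the eIF2 sums of both groups overlap.

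The eIF4E family, the cap-binding proteins, has 7 genes in the table, and 2 of them held nearly all of its transcripts. eIF4E1 (FBgn0015218, 3L:9399618-9402460, minus strand), the general cap-binding factor, was at 944, 898 and 951 TPM in controls and 887, 953 and 938 TPM with overexpression. It made up between 89.4% and 91.2% of the family's TPM in each sample. eIF4EHP (FBgn0053100, 3R:24063077-24108960, minus strand), a cap-binding protein that does not join eIF4G and represses mRNAs such as caudal and hunchback in the fly embryo, was at 111, 88.9 and 107 TPM in controls and 85.5, 102 and 102 TPM with overexpression. It made up between 8.79% and 10.5% of the family, so eIF4E1 exceeded it by 8.49-fold to 10.4-fold within each sample. Neither gene differed beyond the spread of its replicates, with log2 fold changes of -0.01 (SE 0.05, limma adjusted p = 0.995) for eIF4E1 and -0.08 (SE 0.10, limma adjusted p = 0.950) for eIF4EHP. The eIF4EHP row overlaps Syx1A on the same strand.

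The other 5 eIF4E genes were at or near 0, and together summed to between 0.38 and 0.80 TPM per sample. eIF4E3 and eIF4E4 were listed at 0 in all 6 samples; eIF4E3 is known for its role in male meiosis. eIF4E5, which acts in spermatogenesis, was at 0.61, 0.43 and 0.08 TPM in controls and 0.44, 0.16 and 0.24 TPM with overexpression. These values overlapped and varied several times over between replicates. eIF4E6 was at 0.14, 0.11 and 0.25 TPM in controls and 0, 0.13 and 0.13 TPM with overexpression, and eIF4E7 did not exceed 0.10 TPM. How reads shared between similar copies were assigned is not stated, so levels this low are uncertain. On the chromosome eIF4E4 (3L:6664224-6665641), eIF4E5 (3L:7894880-7896009), eIF4E3 (3L:8229224-8230568) and the abundant eIF4E1 lie on the same arm, whereas eIF4E7 is on X and eIF4E6 and eIF4EHP are on 3R. Their longest annotated coding sequences run from 173 residues for eIF4E6 to 429 for eIF4E7, with 259 for eIF4E1 and 248 for eIF4EHP.

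Both genes of the eIF4G pair were present in all 6 samples. eIF4G1 (FBgn0023213, chromosome 4, 4:915297-930715, minus strand), the general scaffold and the single gene of the 51 on chromosome 4, was at 244, 216 and 252 TPM in controls and 237, 267 and 249.5 TPM with overexpression. eIF4G2 (FBgn0260634, 3R:23808285-23819237, minus strand), a fly paralog needed in male meiosis, was at 34.5, 31.1 and 39.7 TPM in controls and 36.1, 40.8 and 31.8 TPM with overexpression. It held between 11.3% and 13.6% of the pair's TPM in every sample. Of the 11 testis genes looked for, 5 were listed at 0 in all 6 samples, and the highest, topi, was at 0.64 to 1.32 TPM. The part of testis RNA in the eIF4G2 values was not tested. The log2 fold changes were 0.08 (SE 0.07, limma adjusted p = 0.934) for eIF4G1 and 0.04 (SE 0.11, limma adjusted p = 0.976) for eIF4G2. That of eIF4G1 was 0.02 without control replicate 2, 0.04 without overexpression replicate 2 and 0.13 without control replicate 3. The eIF4G2 row overlaps CG33111 on the same strand. NAT1, a more distant eIF4G relative outside the naming rule that works without eIF4E, was at 419.9 to 489 TPM, between 1.72 and 1.95 times the level of eIF4G1 within each sample.

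The eIF4A helicase was the most abundant of the initiation factors. eIF4A (FBgn0001942, 2L:5981764-5985909, plus strand) was at 1705, 1754 and 1671 TPM in controls and 1824, 1720.2 and 1842 TPM with overexpression. The groups overlapped, and limma gave a log2 fold change of 0.07 (SE 0.05, adjusted p = 0.909). Its relative in the exon junction complex, eIF4AIII, which stands in the table as CG7483 and takes that name from a RefSeq synonym, was at 99.5 to 113 TPM. Within each sample the members of eIF4F were unequal in transcript level, with eIF4A at 1.76 to 2.06 times eIF4E1 and eIF4E1 at 3.57 to 4.16 times eIF4G1. The helicase helpers eIF4B (428 to 496 TPM) and eIF4H1 (195 to 224 TPM) were both present, and the paralog eIF4H2 was listed at 0 in all 6 samples. eIF4H1 is the next of the 51 genes after eIF2alpha on X, starting at 16448665 where eIF2alpha ends at 16446993.

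**Figure D4:**
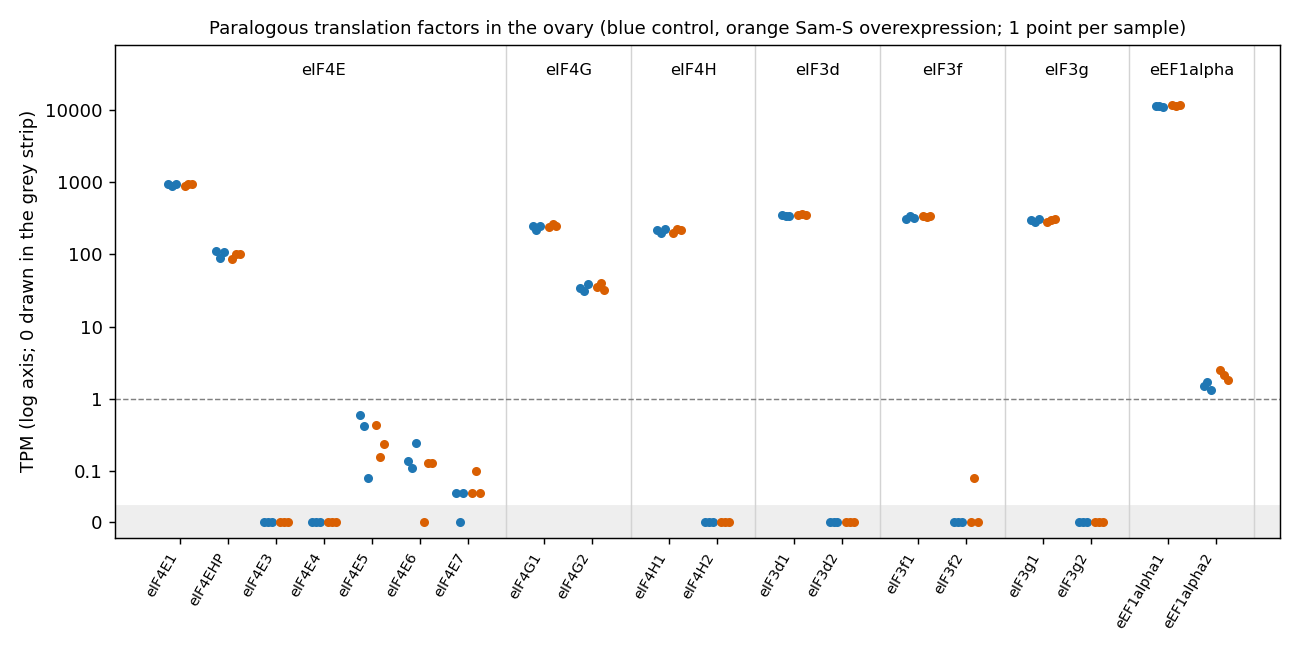
TPM in each sample (log axis, values of 0 in the grey strip) for factors with more than 1 gene, blue for the 3 controls and orange for the 3 Sam-S overexpression samples. In the eIF3d, eIF3f, eIF3g and eIF4H pairs 1 gene is at 195 to 361 TPM and the other at or near 0, whereas eIF4G2 and eIF4EHP lie between 31.1 and 111 TPM.

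At the end of initiation, eIF5 makes eIF2 hydrolyse its GTP, eIF5B joins the subunits, and eIF6 keeps free large subunits apart. eIF5 (FBgn0030719, X:15987008-15991974, minus strand) was at 385, 349 and 375 TPM in controls and 351, 339 and 356 TPM with overexpression. The groups overlapped, with 2 overexpression values above the lowest control, and the log2 fold change was -0.08 (SE 0.05, limma adjusted p = 0.884). eIF5B was between 147 and 165 TPM and eIF6 between 120.5 and 132 TPM. The rows of eIF5 and eIF6 overlap CG46312 and ytr on the same strand.

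The highest of the 51 genes were elongation factors, eEF1alpha1, eEF2, eEF5 and eEF1gamma, whereas eEFSec and eEF1alpha2 were the lowest of the 42 tested. eEF1alpha1 (FBgn0284245, 2R:11891135-11895762, plus strand), which encodes eEF1A, was at 11318, 11289 and 11020.4 TPM in controls and 11740.3, 11423 and 11873 TPM with overexpression. It was the highest row of the whole table in 5 of the 6 samples and the next highest in control replicate 2, and it alone made up 1.12% of all TPM in controls and 1.17% with overexpression. All 3 overexpression values were above the controls, and limma gave a log2 fold change of 0.06 (SE 0.05, adjusted p = 0.944). eEF2 (FBgn0000559, 2L:21677913-21682164, minus strand), the translocase, was at 4080.1, 4092 and 3899 TPM in controls and 4380.3, 4207 and 4186 TPM with overexpression. It too had no overlap, and its log2 fold change was 0.08 (SE 0.05, limma adjusted p = 0.884). eEF1alpha1 exceeded eEF2 by 2.68-fold to 2.84-fold within each sample.

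The exchange complex of eEF1A, called eEF1B, was also unequal. eEF1gamma was at 1883 to 2058 TPM. eEF1beta was at 1450.1, 1414 and 1327 TPM in controls and 1405, 1376 and 1372 TPM with overexpression, and eEF1delta at 893, 849 and 902 TPM and 857, 911 and 870.0 TPM. The ranges of the 3 genes did not overlap, whereas the groups overlapped for each of the 3. eEF5, the fly gene for the protein also known as eIF5A, which helps the ribosome through proline stretches, was at 3381 to 3716 TPM. eEFSec, the factor that brings selenocysteine tRNA, was at 11.7, 10.1 and 9.72 TPM in controls and 13.4, 10.6 and 10.2 TPM with overexpression. eEF1alpha1 exceeded it by 875-fold to 1161-fold, and its log2 fold change was 0.10 (SE 0.13, limma adjusted p = 0.948).

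eEF1alpha2 (FBgn0000557, 3R:31738468-31743306, plus strand), the paralog of eEF1alpha1 with 462 against 463 annotated residues, was the lowest of the 42 genes tested and had their largest fitted difference. It was at 1.51, 1.74 and 1.35 TPM in controls and at 2.56, 2.16 and 1.84 TPM with overexpression. The 3 overexpression values were all higher, but the highest control and the lowest overexpression sample differed by less than the range within either group. The log2 fold change was 0.33 (SE 0.17, unadjusted p = 0.0855, limma adjusted p = 0.851). It was 0.48 with a pseudocount of 0.1 and 0.20 under quantile normalization. The authors' deposited table gave a log2 fold change of 0.51, an unadjusted p of 0.0171 and an FDR of 0.711. Within each sample eEF1alpha1 exceeded it by 4586-fold to 8163-fold. How reads that fit both paralogs were assigned is not stated, so the level of eEF1alpha2 is uncertain.

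Markers of the muscle sheath were read beside eEF1alpha2. Mhc was at 14.6, 11.6 and 11.1 TPM in controls and 17.4, 11.2 and 12.1 TPM with overexpression, and the summed level of 5 sheath genes was 518 to 594 TPM and 521 to 569 TPM, so these overlapped between groups. Tm1, at 406 to 447 TPM, made up most of that sum and had a log2 fold change of -0.02, while those of Mhc, up, Mlc2 and Act57B were positive, at 0.10, 0.18, 0.13 and 0.05, and the median over the 5 was 0.10. Of the 5, 0 passed the test and 5 had a mean of at least 1 TPM. Their part in the eEF1alpha2 values was not tested.

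The balance within paralog pairs was compared between groups as the log2 ratio of TPM in each sample, for the 6 of 13 listed pairs in which both genes were above 0 in every sample. The other 7 pairs had a gene at 0 in at least 1 sample. The largest difference was in the ratio of eEF1alpha1 to eEF1alpha2, with means and SDs over 3 samples of 12.84 ± 0.17 for controls and 12.40 ± 0.25 for overexpression on the log2 scale. A two-sided exact permutation test gave p = 0.1, the smallest that 3 samples against 3 allow, adjusted to 0.6 over the 6 pairs. For eIF4E1 against eIF4EHP the log2 ratio was 3.19 ± 0.13 and 3.27 ± 0.10 in the same order, with an exact p of 0.4. For eIF4G1 against eIF4G2 it was 2.76 ± 0.08 and 2.80 ± 0.15, with an exact p of 0.8. The ratio of eIF4A to CG7483 had an exact p of 0.4, that of eEF1beta to eEF1delta 0.9 and that of eIF4E1 to eIF4E5 1.0, so no pair passed, and the design could not have let one pass.

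Summed, the 51 genes held 3.48% of all TPM in controls (SD 0.0385, n = 3) and 3.59% with overexpression (SD 0.0373, n = 3), with 8 elongation genes giving 2.29% and 2.38% and 43 initiation genes 1.19% and 1.20%. The summed values were 35134, 34858 and 34374 TPM in controls and 35831, 35497 and 36241 TPM with overexpression. The groups did not overlap. The difference of 1068 TPM is mostly that of eEF1alpha1, which rests on means of 11209 and 11679 TPM, and of eEF2, with means of 4023 and 4258 TPM. TPM is relative to the rest of the library, and the sum is given as a description without a test. The summed level of 6 germline markers lay between 2028 and 2077 TPM in controls and between 2086 and 2139 TPM with overexpression, also without overlap, and 6 of 6 had a mean of at least 1 TPM while 0 passed the test. Of the 6, osk and aub were higher without overlap, beside 6.25% of all rows tested. Their log2 fold changes were 0.13 and 0.18, and osk, at 939 to 1069.9 TPM, was the most abundant. The groups overlapped for vas (249 to 303 TPM), nos, bam and otu. The log2 fold change of bam was 0.12, while those of vas, nos and otu were negative, at -0.10, -0.04 and -0.06. The part of germline content in the sum was not tested.

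Within the groups, control replicate 2 held the lowest control value for 25 of the 42 genes, against 57.2% of all rows tested, and overexpression replicate 1 the lowest overexpression value for 22, against 57.1%. Lowest in both libraries were 16 of the 42 (38.1%), against 42.0% of all rows tested, among them eIF4B, eIF4EHP, eIF4E1, eIF4H1 and eIF1A. The same libraries had the highest level in their groups of the eggshell gene Vm26Aa, made by follicle cells, at 5916 TPM against 5057 and 4874 TPM in the other controls and 7266 TPM against 4675 and 3994 TPM in the other overexpression samples. The part of egg chamber makeup in the levels of the factors was not tested. Without both libraries 0 of the 42 genes passed, and 24 were positive and 18 negative.

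Of 34 other translation genes listed beside the factors, among them regulators of eIF4E, the eIF2 kinases, release factors, mitochondrial elongation factors and oocyte repressors, all 34 were tested and 0 passed an adjusted p of 0.05 in limma, with 18 positive and 16 negative and a median log2 fold change of 0.00. At an unadjusted p under 0.05 there were 2 of the 34, pAbp and orb, beside 6.58% of all rows tested. pAbp, the polyA-binding protein that contacts eIF4G, was at 1401, 1363 and 1376 TPM in controls and 1549, 1555 and 1515 TPM with overexpression. The groups were well apart for pAbp, at a log2 fold change of 0.16 (SE 0.04, limma unadjusted p = 0.00455), but adjusted over all rows tested p was 0.368 in limma. orb, the fly CPEB protein that promotes translation of oocyte mRNAs, was at 235, 251 and 235 TPM in controls and 257, 261 and 269.8 TPM with overexpression, with a limma adjusted p of 0.622. MCTS1, a partner in reinitiation, was lower without overlap, at 155, 157 and 153 TPM against 146, 145 and 146 TPM, with a limma adjusted p of 0.761. Over the list, 4 of 34 genes (11.8%) had no overlap in either direction, against 11.9% of all rows tested. Thor, the eIF4E-binding repressor also called 4E-BP, was at 85.1 to 99.8 TPM in controls and 95.3 to 106 TPM with overexpression, and the ranges overlapped.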

How the data were processed

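PolyA RNA-seq of 6 ovary samples was analysed from the authors' deposited table, in which TPM values, rounded to 2 decimals, stand in 1 column per sample, per the file headers. STAR is named in the submitters' processing notes; how reads were counted, and on which build and annotation, is not given in the sources used here. The authors' deposited log2 fold change, p-value and FDR are quoted only where named as such; 0 value columns lacked a sample. Groups came from the sample titles. The genes and lists were chosen with earlier results of these data known.

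Values were fitted as log2(TPM + 1) with limma 3.58.1 in R 4.3.3 (eBayes with trend, group term only) over the 7855 rows with a mean TPM of at least 1, two-sided, with Benjamini-Hochberg adjustment over all of them. The procedure was also run on simulated data with noise drawn independently for each gene and sample, and the outcome is not given here. Deviations shared by many genes of a library were not part of that simulation. Python 3.11.15, pandas 2.3.3 and numpy 2.4.6 did the rest. Named in full are both genes of each paralog pair, the 5 genes with the largest absolute log2 fold change the 3 with the smallest p and, of 34 other translation genes, the 3 with the smallest p. Alternatives were a pseudocount of 0.1, no filter, a mean of at least 5, trimmed mean scaling, quantile normalization, no trend, the batch block, leaving out each sample and, added after seeing the data, leaving out control replicate 2 with overexpression replicate 1.

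The pairing of samples comes from the batch field of the labels, which holds the same number as the replicate. Deviations of same-numbered samples from their group means correlated at -0.06, -0.06 and 0.21, and the highest value, 0.26, was between control 2 and overexpression 1, which do not share a number. TPM keeps no depth, so counting error is unknown.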

Additional observations from a re-analysis of the deposited data

How the results depend on the processing

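The count of changed eIF and eEF genes, and that of the 34 other translation genes, was 0 in all 15 fits, and the log2 fold change of Sam-S stayed between 1.58 and 1.64. With the batch number as a replicate block the fit called 0 of the 42 genes and 16 rows of the whole table, and the block changed no call of Sam-S, the 42 genes or the 34 other translation genes. Of all rows, 13 were called when no filter on low values was applied, and 11 to 27 when 1 sample was left out, with 11 without control replicate 1 and 14 without control replicate 3. The number of eIF and eEF genes with a negative log2 fold change was 9 under quantile normalization and 9 to 22 when 1 sample was left out, with 9 without overexpression replicate 1 and 22 without overexpression replicate 2. At an unadjusted p under 0.05 there were 5 of the 42 genes under quantile normalization. There were 2 without control replicate 2 and overexpression replicate 1. There was 1 without the trend, 1 without control replicate 2 and, of 46 members tested, 1 with no filter on low values. The share of all rows under 0.05 in these fits is not given here, so the counts cannot be set against the whole table.

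Some differences near 0 changed sign. Under quantile normalization eIF3g1 was at 0.0196 and eEF1delta at 0.0180, and under trimmed mean scaling eIF3g1 was at 0.0015, eIF4E1 at 0.0043 and eEF1delta at 0.0080. Without control replicate 2 and overexpression replicate 1, eIF4G2 was at -0.0375 and eEFSec at -0.0323, and the log2 ratio of eIF4G1 to eIF4G2 differed by 0.0960. With 1 sample left out, the log2 fold change spanned -0.0474 to 0.0187 for eIF3g1, -0.0332 to 0.0231 for eIF4E1, -0.177 to 0.0037 for eIF4EHP, -0.0431 to 0.134 for eIF4G2, -0.0489 to 0.0151 for eEF1beta, -0.0304 to 0.0148 for eEF1delta and -0.0080 to 0.178 for eEFSec. The difference in the log2 ratio spanned -0.466 to 1.01 for eIF4E1 to eIF4E5, -0.0473 to 0.0848 for eIF4G1 to eIF4G2 and -0.0620 to 0.0275 for eEF1beta to eEF1delta. The cause was not tested. None of these genes passed in limma in any of these settings, and the exact test of the ratios could not have passed in any.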
